A study of Mus musculus with 4 samples.

Results

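Kupffer cells are the resident macrophages of the liver sinusoids. They take up bacteria, aged red cells and lipoproteins from portal blood, and on fatty diets monocytes recruited from the blood add macrophages that carry other receptors. The genes described here mark these cells. Chosen with earlier results of these data known, they are 33 symbols listed for their known role as Kupffer cell and macrophage markers. Of these, 31 had rows of their own among the 22849 symbols of the deposited table, 28 of them reached a mean of 1 FPKM over the 4 libraries and were tested, and 3 (Itgam, Ccr2 and Cx3cr1) stayed below. Lyz2 and Gpnmb were listed only in rows shared with a neighbouring gene and are given apart.

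RNA came from whole liver of male C57BL/6 mice, an inbred strain, fed a diet with 60% fat for 12 weeks. The vehicle group (2 libraries) ate this diet alone, and the UAB126 group (2 libraries) ate it with UAB126, a compound known here only by its code, at 1.2 g per kg of diet. All mice were on the high fat diet, so no library shows a lean liver. The sources used here do not say whether each library came from a separate animal, and p-values measure the spread between these libraries, which may be partly technical. The values are FPKM, fragments scaled to transcript length and to library size, which allow levels to be compared between genes. In bulk liver, fewer macrophages and less RNA per macrophage cannot be told apart.

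The vehicle libraries did not match each other in these genes. Vehicle 1 was the lowest of the 4 libraries in 26 of the 28 tested members, against 18.4% of the 10786 genes tested, and in 28 of all 31 members (17.2% of the 16543 symbols with any value). Vehicle 2 exceeded vehicle 1 in 28 of 28 tested members, by a median of 1.05 on the log2(FPKM + 1) scale, while the median over all genes was 0.04. The members' FPKM summed to 239.2 in vehicle 1, 618.0 in vehicle 2, 459.8 in UAB126 1 and 564.9 in UAB126 2. Each result below is therefore given with the vehicle libraries shown singly.

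The excess of vehicle 2 over vehicle 1 was a median of 1.18 on the log2 scale in the 12 tested members with a longest transcript under 1500 bases and 0.92 in the 16 longer ones. With the trend of each library with transcript length removed, vehicle 1 was still the lowest library in 26 of 28 members (20.9% of 10265 genes), and vehicle 2 exceeded it by a median of 0.84. Relative to UAB126 1, the depth read from the steps of low values was 0.691 in vehicle 1, 0.404 in vehicle 2 and 0.703 in UAB126 2, so members under 1 FPKM are least precise in vehicle 2.

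Macrophage genes are commonly bound by the lineage transcription factor PU.1, whose recognition core is GAGGAA. Promoter stretches of 7 tested members are shown, 5 with a match to this core and 2 (Clec4f and Lgals3) without, so that both can be seen. Any relation of this motif to the levels was not tested. Each is the 150 bases before the RefSeq start site (GRCm38.p6, the assembly also called mm10), 5′ to 3′ on the gene's strand, with each match to the core on either strand in capitals. Marco lies at chr1:120505025-120505174 on the minus strand, Vsig4 at chrX:96293439-96293588 (minus), Cd5l at chr3:87357731-87357880 (plus), C1qb at chr4:136886201-136886350 (minus), Fcgr1 at chr3:96293970-96294119 (minus), Clec4f at chr6:83656117-83656266 (minus) and Lgals3 at chr14:47373710-47373859 (plus).
Marco: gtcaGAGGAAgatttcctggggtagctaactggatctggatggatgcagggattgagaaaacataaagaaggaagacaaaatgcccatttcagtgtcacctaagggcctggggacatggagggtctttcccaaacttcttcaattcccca
Vsig4: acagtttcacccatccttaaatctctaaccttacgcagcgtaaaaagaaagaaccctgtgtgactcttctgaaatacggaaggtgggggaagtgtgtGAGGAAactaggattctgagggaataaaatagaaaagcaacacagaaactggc
Cd5l: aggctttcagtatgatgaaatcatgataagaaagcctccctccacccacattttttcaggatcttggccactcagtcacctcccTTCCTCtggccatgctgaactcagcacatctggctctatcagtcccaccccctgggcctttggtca
C1qb: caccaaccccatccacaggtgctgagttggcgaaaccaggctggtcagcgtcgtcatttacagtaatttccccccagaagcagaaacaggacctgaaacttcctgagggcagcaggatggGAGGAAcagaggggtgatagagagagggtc
Fcgr1: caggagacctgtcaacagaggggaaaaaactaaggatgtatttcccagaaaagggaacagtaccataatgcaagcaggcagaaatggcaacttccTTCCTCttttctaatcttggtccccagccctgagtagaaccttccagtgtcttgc
Clec4f: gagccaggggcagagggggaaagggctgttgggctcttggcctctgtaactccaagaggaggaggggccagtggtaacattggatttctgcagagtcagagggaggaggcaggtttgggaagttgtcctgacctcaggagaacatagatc
Lgals3: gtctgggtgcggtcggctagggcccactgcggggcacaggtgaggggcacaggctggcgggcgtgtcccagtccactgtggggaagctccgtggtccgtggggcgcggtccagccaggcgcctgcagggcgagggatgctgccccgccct

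The match began 146 bases before the start site in Marco and 30 bases before it in C1qb. The RefSeq promoters used here covered 27 of the 33 members and left out Emr1, Csf1r, Cd14, C1qa, Tyrobp and Msr1. Of the 27 covered, 15 (55.6%) held GAGGAA or its reverse complement in the 250 bases before a start site. The share over 27025 genes was 25.9%. The members with a match included Cd68, Laptm5, Ctss, C1qc, Fcgr3, Itgam, Ly6c2, Trem2, Axl and Aif1. Clec4f, Timd4, Cd163, Mpeg1, Lyz2, Fcer1g, Ccr2, Cx3cr1, Gpnmb, Cd9, Lgals3 and Mertk had none in that window. A match is a description of letters in a window and not a measured binding site.

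The question of the comparison was how UAB126 in the diet changed liver gene expression. The log2 difference was above 0 in 23 of 28 tested members, against 47.4% of all genes, but none passed the test. Of 28 members tested, 0 rose and 0 fell at an adjusted p under 0.05 (limma over all 10786 genes, Benjamini-Hochberg), where the shares over all genes were 0.0464% higher and 0.0927% lower. The lowest adjusted p of a member was 0.270, of Emr1. At an unadjusted p under 0.05, 2 members were higher (5.03% of all genes) and 0 lower (8.38% of all genes). Both UAB126 libraries lay above both vehicle libraries in 10 of 28 tested members, against 22.7% of all genes, and below both in 0, against 26.9%. Over all 31 members the counts were 12 and 0, against 22.1% and 21.4% of the 16543 symbols with any value.

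The median log2 difference of the tested members was 0.38, against -0.03 over all genes, and it rested on vehicle 1. Without vehicle 1 it was -0.002, with 14 of 28 members above 0. Both UAB126 libraries lay above vehicle 2 in 10 members (37.7% of all genes) and below it in 12 (44.3%). Without vehicle 2 the median was 0.85, with all 28 members above 0. In 26 members both UAB126 libraries lay above vehicle 1 (34.2% of all genes). Between single libraries, UAB126 1 exceeded vehicle 1 by a median of 0.77 and lay below vehicle 2 with a median of -0.24. UAB126 2 exceeded vehicle 1 by a median of 0.98 and vehicle 2 by 0.06. In 10 of 28 members both UAB126 libraries fell between the vehicle libraries, against 12.7% of all genes, and in 12 vehicle 2 was the highest of the 4, against 36.8%.

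**Figure D1:**
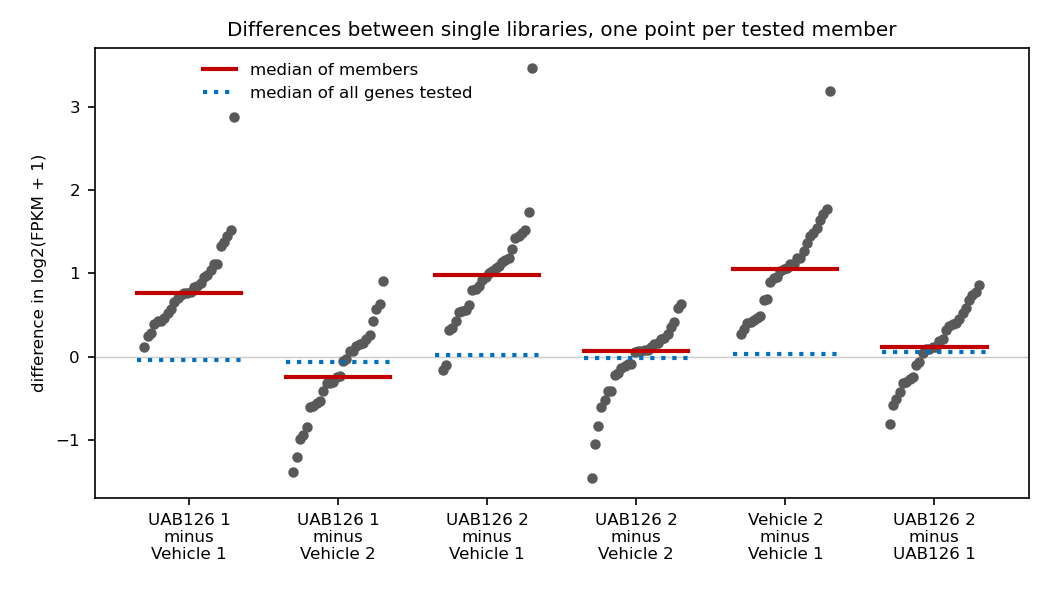
Difference in log2(FPKM + 1) between pairs of single libraries, with a grey point for each of the 28 tested members sorted within a pair, a red line at their median and a dotted blue line at the median of all genes tested. The 3 pairs that subtract vehicle 1 have member medians of 0.77, 0.98 and 1.05, while the 3 other pairs have medians from -0.24 to 0.11.

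Of the 7 members listed for Kupffer cell identity, 0 passed the test, and vehicle 1 was the lowest library in all 7 (18.4% of all genes). Clec4f, the C-type lectin that is the most specific Kupffer cell marker in mice (chromosome 6, 83644542 to 83656187), was at 15.9 FPKM in vehicle 1, 46.4 in vehicle 2, 31.8 in UAB126 1 and 34.5 in UAB126 2. Both UAB126 values lay between the vehicle values, and the log2 difference was 0.27 ± 0.49 (moderated SE of limma over 2 libraries a group, limma adjusted p = 0.813). Vsig4, a receptor for complement fragments on resident macrophages (chromosome X, 96247203 to 96293438), had the same order, at 10.6, 25.3, 18.7 and 21.5 FPKM in these libraries.

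Marco, a scavenger receptor for bacteria and particles (chromosome 1, 120474538 to 120505024), separated vehicle 1 most sharply. It was at 0.887 FPKM in vehicle 1 and at 16.3 FPKM in vehicle 2, an 18.4-fold difference within the vehicle group, and at 12.9 and 19.9 FPKM with UAB126. The log2 difference of 1.57 ± 1.01 did not pass (limma adjusted p = 0.497). Without vehicle 2, so against vehicle 1 alone, it was 3.17 and passed (limma adjusted p = 0.0152), and without vehicle 1 it was -0.03 (limma adjusted p = 0.970). With 1 vehicle library the test takes its spread from the UAB126 libraries and assumes that the lone library varies like them.

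Cd5l, a secreted protein of tissue macrophages that regulates lipid synthesis (chromosome 3, 87357881 to 87371073), was at 16.5 FPKM in vehicle 1 and 44.2 in vehicle 2. With UAB126 it was at 49.0 and 46.7 FPKM, so that the groups did not overlap, by a small margin over vehicle 2. Its log2 difference of 0.80 ± 0.46 did not pass (limma adjusted p = 0.464) and was 0.11 without vehicle 1. Timd4, a phosphatidylserine receptor of long-lived embryonic Kupffer cells (chromosome 11, 46810800 to 46844332), was at 1.13 and 3.43 FPKM in the vehicle libraries, against 2.55 and 4.94 FPKM under UAB126, and the groups overlapped. Cd163, the haemoglobin-haptoglobin receptor (chromosome 6, 124304656 to 124330527), was at 1.34 and 2.78 against 2.96 and 3.22 FPKM.

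Emr1, now named Adgre1, encodes the surface antigen most used to stain mouse macrophages (chromosome 17, 57358691 to 57483527). It was at 1.15 and 1.87 FPKM in the vehicle libraries, against 4.39 and 3.31 FPKM under UAB126, and each UAB126 value exceeded each vehicle value. The ratio of means was 2.55, and the log2 difference of 0.96 ± 0.25 had the lowest p of the members (limma unadjusted p = 0.0106, adjusted p = 0.270). Unlike Clec4f and Marco, it kept most of its size when either vehicle library was left out, at 0.75 without vehicle 1 and 1.17 without vehicle 2, and neither passed.

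**Figure D2:**
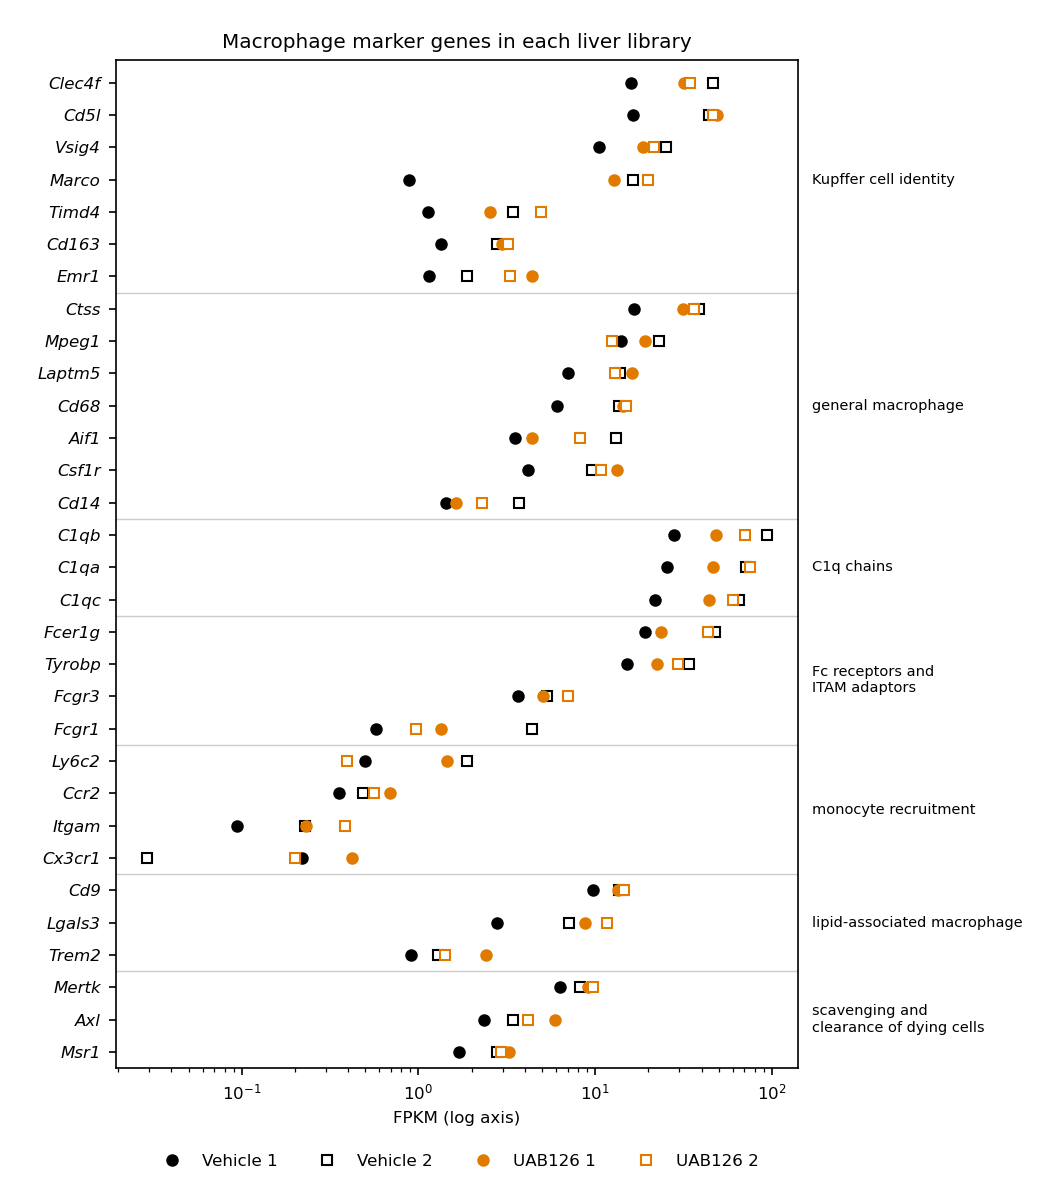
FPKM on a log axis of the 31 members with rows of their own, grouped by role, with a point for each library (black, vehicle; orange, UAB126; filled circles, library 1; open squares, library 2). Vehicle 1 is the leftmost point in 28 of the 31 genes, and for Marco it lies at 0.887 FPKM against 12.9 to 19.9 FPKM in the other libraries.

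Of 7 tested genes shared by macrophages of many tissues, 2 (Csf1r and Cd68) were higher in both UAB126 libraries (22.7% of all genes), 0 were lower (26.9%) and 0 passed the test. Csf1r, the receptor for the macrophage growth factors CSF1 and IL-34 (chromosome 18, 61100598 to 61132149), was at 4.19 and 9.59 FPKM in the vehicle libraries, against 13.2 and 10.8 FPKM under UAB126. The groups did not overlap, and the log2 difference was 0.81 ± 0.36 (limma adjusted p = 0.406). It was 0.29 without vehicle 1 and 1.32 without vehicle 2. Exons of the opposite-strand gene Hmgxb3 overlap it, and strand was not stated for this library kit. Cd68, a lysosomal glycoprotein of macrophages, was at 6.10 and 13.7 against 14.4 and 14.9 FPKM, close to vehicle 2 in both UAB126 libraries.

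Laptm5, a lysosomal membrane protein of blood cells, was at 6.98 and 13.8 against 16.2 and 12.99 FPKM. Of the value in UAB126 1, 4.04 FPKM came from a second row listed at 0 in the other libraries, and with the higher row alone the log2 difference went from 0.51 to 0.32. Ctss, the cysteine protease cathepsin S, was at 16.6 and 38.9 against 31.3 and 36.5 FPKM, between the vehicle libraries. Mpeg1, which encodes the pore-forming protein perforin-2, was 1 of 2 tested members, with Ly6c2, in which vehicle 1 was not the lowest library. It was at 14.0 and 23.0 FPKM in the vehicle libraries, against 19.2 and 12.4 FPKM under UAB126, with the lowest value in UAB126 2 and a log2 difference of -0.21 ± 0.32.

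Cd14 and Aif1 were highest in vehicle 2. Cd14, the co-receptor for bacterial lipopolysaccharide, was at 1.44 and 3.73 FPKM in the vehicle libraries, against 1.63 and 2.28 FPKM under UAB126. Aif1, an actin-bundling protein of macrophages also called Iba1, was at 3.54 and 13.1 FPKM in the vehicle libraries, against 4.37 and 8.24 FPKM under UAB126. Their log2 differences of -0.21 ± 0.36 and -0.18 ± 0.58 turned to 0.01 and 0.29 with the length trend removed, and Aif1 has a longest transcript of 875 bases. A row naming Lyz1 and Lyz2 together, the lysozymes of which Lyz2 is the macrophage form, was at 22.4 and 67.3 FPKM in the vehicle libraries, against 48.3 and 67.5 FPKM under UAB126, again with vehicle 1 lowest.

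The C1q chains were among the most abundant members, although Cd5l exceeded each of them in UAB126 1. Macrophages make nearly all C1q, the recognition molecule of the classical complement pathway, which is built from A, B and C chains encoded side by side on chromosome 4 (C1qb from 136880129, C1qc from 136889804 and C1qa from 136895917 to 136898803). C1qb was at 28.0 and 93.9 FPKM in the vehicle libraries, against 48.4 and 70.1 FPKM under UAB126. C1qa was at 25.6 and 71.8 against 46.7 and 75.2 FPKM, and C1qc at 21.8 and 65.4 against 44.0 and 60.3 FPKM.

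The 3 chains moved together, with vehicle 1 lowest, UAB126 1 next and the other libraries highest. Together they held 31.5%, 37.4%, 30.3% and 36.4% of the members' summed FPKM in vehicle 1, vehicle 2, UAB126 1 and UAB126 2. The ratio of C1qa to C1qb was 0.916 and 0.766 in vehicle and 0.965 and 1.07 with UAB126, and that of C1qc to C1qb was 0.778 and 0.697 against 0.908 and 0.860. Both UAB126 libraries had higher ratios than both vehicle libraries, a comparison made after the values were seen and with no test. The log2 differences of the chains ran from 0.18 to 0.45 and none passed (limma adjusted p from 0.698 to 0.905). With the length trend removed they were 0.86 for C1qa, 0.57 for C1qb and 0.78 for C1qc, again with none passing. The median of the chains was -0.34 without vehicle 1 and 1.18 without vehicle 2.

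Fc receptors bind antibody and signal through small adaptors that carry an immunoreceptor tyrosine-based activation motif. Fcer1g, the shared Fc receptor gamma chain (chromosome 1, 171229572 to 171234365), was at 19.2 and 47.9 FPKM in the vehicle libraries, against 23.6 and 43.6 FPKM under UAB126. Tyrobp, which encodes the adaptor DAP12 that pairs with TREM2 (chromosome 7, 30413760 to 30417585), was at 15.1 and 34.1 against 22.3 and 29.5 FPKM. Both adaptors lay between the vehicle libraries with UAB126. Their longest transcripts have 683 and 597 bases, and with the length trend removed their log2 differences went from 0.08 to 0.63 and from 0.16 to 0.76 (limma adjusted p = 0.335 and 0.222).

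The Fc receptors themselves differed. Fcgr3, a low-affinity receptor for IgG (chromosome 1, 171051174 to 171064935), was at 3.65 and 5.33 FPKM in the vehicle libraries, against 5.09 and 7.06 FPKM under UAB126. Fcgr1, the high-affinity receptor for IgG (chromosome 3, 96282909 to 96293969), was at 0.579 FPKM in vehicle 1 and 4.39 in vehicle 2, a 7.59-fold difference, and at 1.34 and 0.965 FPKM with UAB126. Its log2 difference was -0.44 ± 0.59 (limma adjusted p = 0.736). Without vehicle 1 it was -1.33 and without vehicle 2 it was 0.44, so its sign followed the vehicle library that was kept. Each of these fits rests on a lone vehicle library and has no spread within that group.

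Markers of recruited monocytes were near the floor of the table. Ly6c2, a surface antigen of inflammatory monocytes, was at 0.501 and 1.88 FPKM in the vehicle libraries, against 1.45 and 0.394 FPKM under UAB126, with no order by group. Ccr2, the chemokine receptor that brings monocytes into the liver, was at 0.355 and 0.485 against 0.686 and 0.558 FPKM. Itgam, the CD11b integrin subunit, was at 0.0939 and 0.229 against 0.232 and 0.382 FPKM, and exons of Gm49368 overlap it. Cx3cr1, the fractalkine receptor, was at 0.220 and 0.0289 against 0.421 and 0.200 FPKM and was the only member lower in vehicle 2 than in vehicle 1. The last 3 did not pass the filter on low values, and were not tested.

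Macrophages that take up lipid in fatty liver are marked by TREM2 and its companions. Lgals3, which encodes the sugar-binding protein galectin-3 (chromosome 14, 47367751 to 47386160), was at 2.78 and 7.16 FPKM in the vehicle libraries, against 8.80 and 11.6 FPKM under UAB126, and the groups did not overlap. The ratio of means was 2.06 and the log2 difference 1.00 ± 0.39 (limma unadjusted p = 0.0484, adjusted p = 0.370). It was 0.45 without vehicle 1 and 1.56 without vehicle 2. Trem2, a lipid-sensing receptor, was at 0.906 and 1.30 against 2.42 and 1.41 FPKM, where UAB126 1 stood above the other libraries. Cd9, a tetraspanin also made by other liver cells, was at 9.71 and 13.7 against 13.4 and 14.5 FPKM. A row naming Gpnmb and Malsu1 together, of which Gpnmb encodes a glycoprotein of lipid-laden macrophages, was at 30.5 and 54.0 against 25.2 and 41.5 FPKM, with no separation, and its FPKM cannot be divided between the genes.

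The receptors for debris and dying cells differed by 0.34 (Mertk) to 0.49 (Msr1) on the log2 scale between the vehicle libraries, less than the median member. In each, both UAB126 libraries lay above both vehicle libraries, as in 22.7% of all genes. None passed the test. Axl (chromosome 7, 25757273 to 25788705) and Mertk (chromosome 2, 128698956 to 128802894) encode receptor kinases that bind dying cells through GAS6. Axl was at 2.36 and 3.45 FPKM in the vehicle libraries, against 5.92 and 4.16 FPKM under UAB126, a log2 difference of 0.63 ± 0.25 (limma unadjusted p = 0.0508, adjusted p = 0.375). A further row names Axl together with its neighbour Hnrnpul1, at 20.9 and 16.2 against 25.1 and 23.2 FPKM, and part of Axl's fragments may be counted there. Mertk was at 6.32 and 8.25 against 9.08 and 9.77 FPKM. Msr1, the class A scavenger receptor for modified lipoproteins, was at 1.69 and 2.78 against 3.23 and 2.93 FPKM. The median of these 3 genes was 0.35, and it was 0.17 without vehicle 1 and 0.60 without vehicle 2.

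Because the level of the whole set differed between libraries, each member was also set against the median member of its own library. This description was chosen after the values were seen and has no test and no share over all genes. By this measure 3 members (Cd5l, Csf1r and Lgals3) were higher in both UAB126 libraries than in both vehicle libraries, and 8 were lower (Clec4f, Vsig4, Mpeg1, Cd14, Aif1, Fcgr1, Tyrobp and Ly6c2). The length trend was not removed in this measure. With it removed, the log2 difference of Tyrobp was 0.76, above the member median of 0.58. The others of these 8 stayed below that median. Fcgr1 lay 1.94 and 1.42 below the median member in vehicle and 2.59 and 2.73 below it with UAB126. Csf1r lay at -0.23 and -0.44 in vehicle and at 0.02 and -0.14 with UAB126. Marco stayed apart in vehicle 1, at -1.69 against -0.02 to 0.68 in the other 3 libraries.

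**Figure D3:**
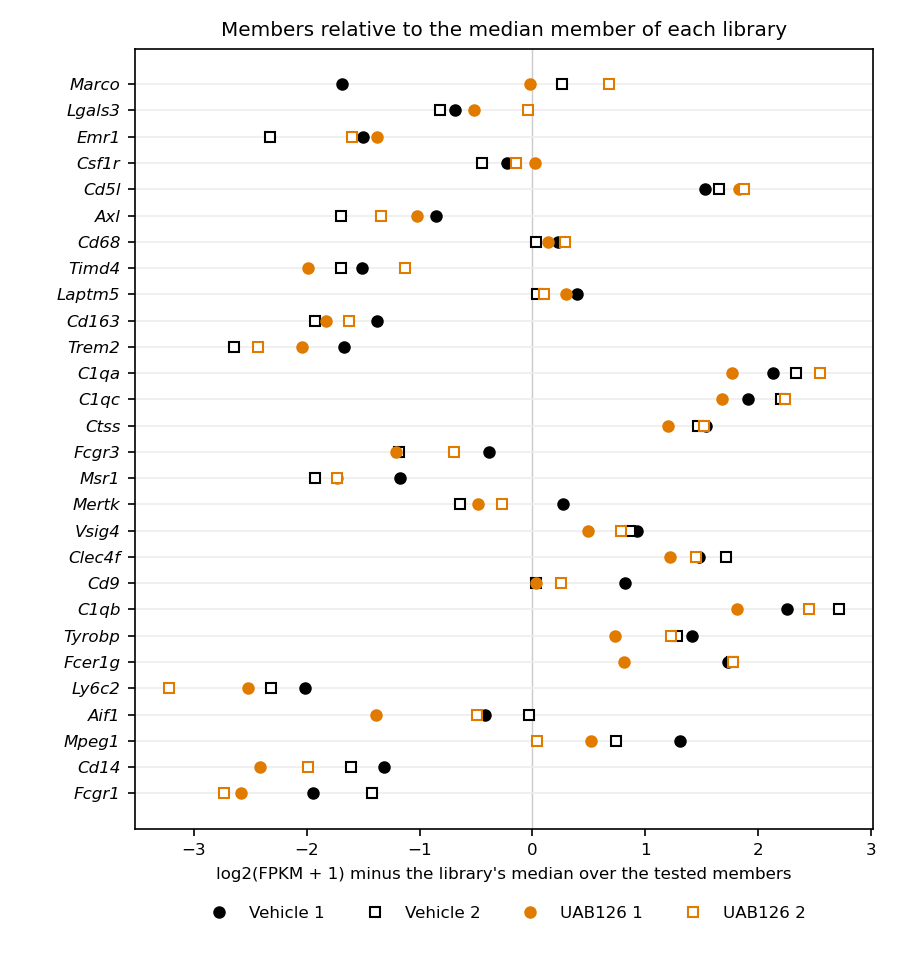
For the 28 tested members, log2(FPKM + 1) minus the median over these members in the same library, sorted by the difference between groups, with black for vehicle, orange for UAB126, filled circles for library 1 and open squares for library 2. Fcgr1, at the bottom, lies at -1.94 and -1.42 in vehicle and -2.59 and -2.73 with UAB126.

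Other genes of the macrophage lineage were taken from lists and none passed at an adjusted p under 0.05 in limma. Their counts of genes whose groups did not overlap are to be read against 22.7% of all genes above and 26.9% below. Of 19 tested further Kupffer cell genes, 5 separated upward in both UAB126 libraries and 3 downward, with a median log2 difference of 0.31, which was -0.13 without vehicle 1 and 0.68 without vehicle 2. The upward share was near that of all genes. Vehicle 1 was the lowest library in 15 of these 19, against 18.4% of all genes. Vcam1, an adhesion molecule, was at 1.82 and 4.43 FPKM in the vehicle libraries, against 6.54 and 6.87 FPKM under UAB126, and C6, a complement component that hepatocytes also make, was at 107.7 and 113.9 against 73.1 and 40.1 FPKM. Of 27 further macrophage and phagocyte genes, 11 separated upward in both UAB126 libraries and 1 downward (median 0.30, with -0.15 without vehicle 1 and 0.66 without vehicle 2). In that list Itgb2, the partner chain of the CD11b integrin, was at 1.12 and 1.95 against 3.50 and 2.96 FPKM. Fcgr2b, an inhibitory Fc receptor that sinusoidal endothelium also makes, was at 15.4 and 23.0 against 31.4 and 31.2 FPKM.

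Of 14 tested transcription factors of the lineage, 1 separated upward in both UAB126 libraries and 7 downward, with a median of -0.30. The median was -0.20 without vehicle 1, -0.16 without vehicle 2, -0.11 without UAB126 1 and -0.40 without UAB126 2. Several of these factors are also made by hepatocytes. Maf, a factor of resident macrophages, was at 10.2 and 11.9 FPKM in the vehicle libraries, against 24.8 and 18.01 FPKM under UAB126, and Bhlhe41 was at 2.46 and 1.31 against 0.439 and 0.489 FPKM. Signals that support macrophages in their niche had a median of 0.46, with 0.33 without vehicle 1 and 0.84 without vehicle 2. Of 6 tested genes, 5 lay above the vehicle range in both UAB126 libraries and 0 below it. Among these Csf2ra, a receptor chain for the growth factor GM-CSF, was at 1.63 and 1.67 against 3.74 and 4.63 FPKM (limma adjusted p = 0.214), and the monocyte chemokine Ccl2 was at 0.794 and 2.04 against 2.40 and 3.42 FPKM.

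Further genes of lipid-associated and foam cells had a median of -0.30, which was -0.31 without vehicle 1 and -0.43 without UAB126 2. It was -0.19 without vehicle 2 or without UAB126 1. The lipid-associated members had a median of 0.46. Some genes of the further list stood far above every member in bulk liver. Apoe was at 25864 and 34651 against 14944 and 24087 FPKM. Ctsl, which went the other way, was at 361 and 382 against 677 and 715 FPKM. How much of such values came from macrophages was not tested. Of 14 tested genes, 3 lay above the vehicle range in both UAB126 libraries and 6 below it. The upward share was near that of all genes. Mmp12, the macrophage elastase, was at 0.600 and 0.155 FPKM in the vehicle libraries, against 5.07 and 3.03 FPKM under UAB126 (log2 difference 1.86 ± 0.31, limma adjusted p = 0.150). Lpl, lipoprotein lipase, was at 18.2 and 72.2 against 9.74 and 14.6 FPKM. Partners of dying-cell clearance had a median of 0.14, with 0.19 without vehicle 1 and 0.06 without vehicle 2. It was 0.09 without UAB126 1 and 0.19 without UAB126 2. Of 8 tested, 3 separated upward in both UAB126 libraries and 1 downward. There Rac2 was at 1.23 and 2.97 against 2.45 and 3.83 FPKM and Pros1, protein S, at 32.1 and 35.1 against 23.0 and 26.2 FPKM. Of 5 antigen presentation genes of MHC class II, 1 was higher and 0 lower, and the median of 0.10 was -0.29 without vehicle 1, 0.50 without vehicle 2, 0.25 without UAB126 1 and -0.04 without UAB126 2. H2-DMa was at 2.21 and 0.635 against 2.42 and 3.08 FPKM and H2-Aa at 23.8 and 40.9 against 37.0 and 45.4 FPKM.

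Markers of other liver cells were read beside these results, and their part in them was not tested. Sinusoidal endothelial markers, none of them a member, moved with the members. Fcgr2b, Mrc1, Clec4g and Stab2 were also in the lineage lists above, as were Cd53, Coro1a and Rac2 of the pan-leukocyte genes. Vehicle 1 was lowest in 10 of the 11 endothelial markers (18.4% of all genes). In 7 both UAB126 libraries lay above both vehicle libraries (22.7% of all genes) and in 0 below (26.9%). The summed FPKM of these markers was 135.3 and 193.6 in vehicle and 225.6 and 240.3 with UAB126. Unlike the members, their median of 0.54 stayed above 0 without vehicle 1, at 0.26. Vehicle 1 was also lowest in 7 of 7 pan-leukocyte genes, of which Laptm5 is a member, with sums of 34.8 and 84.7 FPKM against 59.1 and 76.9 FPKM. By contrast it was lowest in 4 of 11 stellate and fibroblast markers (sums of 192.5 and 231.8 against 214.3 and 212.9 FPKM), in 1 of 6 cholangiocyte markers (72.0 and 57.8 against 55.8 and 55.7 FPKM) and in 3 of 15 hepatocyte markers (72555 and 135470 against 41605 and 59052 FPKM). The cholangiocyte and hepatocyte counts were near the 18.4% share of all genes. Of the hepatocyte markers Alb, the albumin gene, was listed at 0 in all libraries but vehicle 2.

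**Figure D4:**
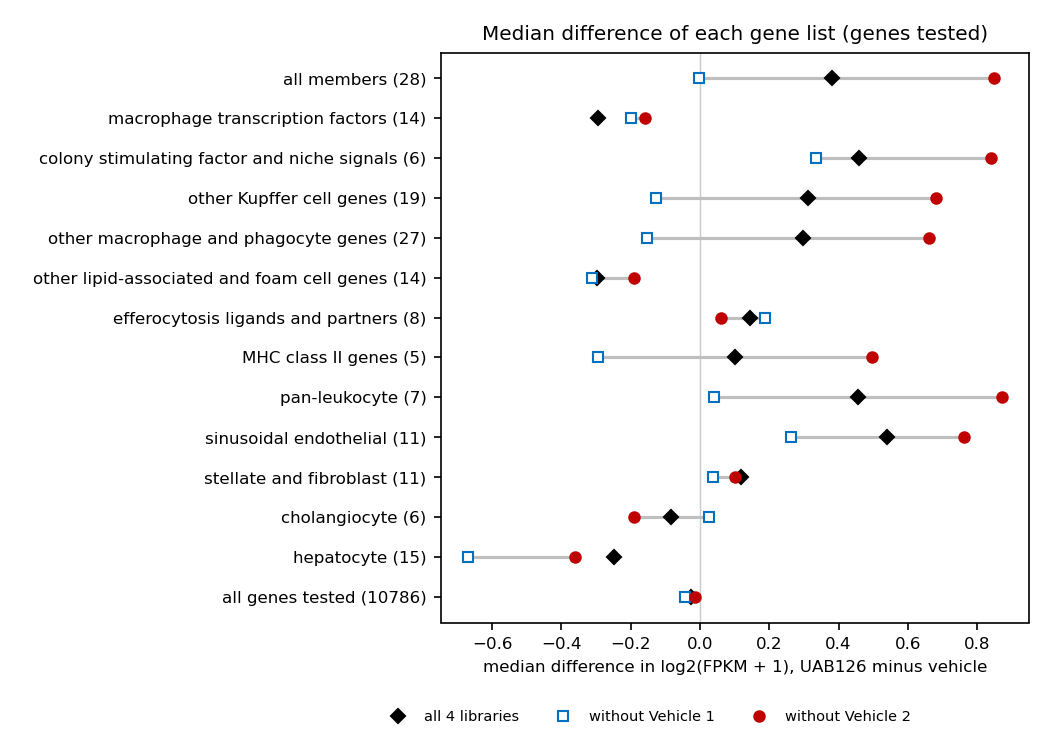
Median difference in log2(FPKM + 1), UAB126 minus vehicle, of each list with at least 5 genes tested and of all genes, with a black diamond for all 4 libraries, an open blue square without vehicle 1 and a red circle without vehicle 2. The members go from 0.85 without vehicle 2 to -0.002 without vehicle 1, and the sinusoidal endothelial markers from 0.76 to 0.26.

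Of the neutrophil markers, S100a8 and S100a9 stood out in vehicle 2 while most others did not. S100a8, a calcium-binding protein abundant in neutrophils, was listed at 0 in vehicle 1 and was at 24.7 FPKM in vehicle 2, 1.09 in UAB126 1 and 0.928 in UAB126 2, and its partner S100a9 was at 0.209, 6.81, 1.45 and 1.65 FPKM. The 11 neutrophil markers with a row summed to 1.59 and 33.3 FPKM in the vehicle libraries, against 3.40 and 4.49 FPKM under UAB126, and in vehicle 2 the markers Retnlg, Mmp8, Cxcr2, Ngp, Camp and Mpo were listed at 0. Elane, the neutrophil elastase, was at 0.286 FPKM there against 1.003 FPKM in vehicle 1. Sums for other blood cells were low. T and NK cell markers summed to 3.55 and 8.98 against 5.66 and 10.2 FPKM (Ncr1 listed at 0 in all but UAB126 1). B and plasma cell markers summed to 3.26 and 4.50 against 3.45 and 7.74 FPKM. Dendritic cell markers summed to 4.53 and 9.26 against 5.67 and 6.85 FPKM. Among the dendritic markers Flt3, Cd209a and Siglech were listed at 0 in vehicle 2, where Batf3 made 6.34 FPKM of the sum. Of the erythroid markers only Alas2 passed the filter, with list sums of 164.1 and 189.3 against 60.0 and 71.1 FPKM. Adipocyte markers summed to 226.4 and 65.7 against 12.4 and 43.6 FPKM, of which Cfd made 213.2 FPKM in vehicle 1.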

How the data were processed

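Polyadenylated RNA of 4 liver libraries was sequenced from both ends, per the labels' protocols. The submitters' processing notes name mm10 as the build, STAR 2.5.1b, Trim Galore 0.4.1, Cuffdiff and Cufflinks 2.2.1. Their settings, like the annotation, were not given in the sources used here. The authors deposited FPKM values, 1 column per library and 27216 rows. Rows without a symbol (3634) were left out, and rows sharing a symbol were summed.

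Differences are on the scale of log2(FPKM + 1), which understates changes of low genes. The limma fit (version 3.58.1, R 4.3.3) took symbols whose mean reached 1 FPKM (eBayes with intensity trend, group only), two-sided, with Benjamini-Hochberg adjustment over 10786 genes. The ± is limma's moderated SE, with 3.35 of its 5.35 degrees of freedom from other genes. An exact permutation of 2 against 2 libraries cannot go below p = 0.333. The fit was tested on simulated data. Positions and lengths came from GENCODE M21 (GRCm38), whose gene overlapped the deposited locus for all 33 members, and promoters from RefSeq. Other numbers used Python 3.11.15 and pandas 2.3.3. The members and lists were chosen with earlier results of these data known. All members were named, as were the 2 tested genes with the largest absolute difference of each lineage list. Markers of 11 other cell classes served as checks. Other pseudocounts, filters, scalings, row rules, a replicate block and leaving out each library were tried.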

Additional observations from a re-analysis of the deposited data

How the results depend on the processing

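The members called at an adjusted p under 0.05 stayed at 0 with limma under a pseudocount of 0.1, no filter, a filter of 5 FPKM, quantile normalization, the length trend removed, no intensity trend, the replicate block, the highest row per symbol and rows with no symbol kept. Leaving out 1 library gave 0 to 1 (Fcgr1 without vehicle 1, Marco without vehicle 2). Over all genes the count of 15 became 27 with a pseudocount of 0.1, 24 with quantile normalization, 0 with no filter and 0 with rows with no symbol kept, and ran from 0 to 442 with 1 library left out. With the replicate number as a block it was 148. The numbers in the labels are not said to pair libraries, and the block changed no call of a member. Members above both vehicle libraries went from 10 (22.7% of all genes) to 5 of 19 tested at a mean of 5 FPKM (20.2%). They went to 16 with the length trend removed (25.6%). With each library centred on its median member 3 lay above and 8 below, with no share over all genes to set beside them. With 1 library left out the members above ran from 10 to 26, and those below from 0 to 12. The shares over all genes then ran from 33.8% to 37.7% above and from 34.5% to 44.3% below. With the length trend removed, the log2 differences turned to 0.0076 in Cd14 and 0.29 in Aif1. The cause was not tested.

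With 1 library left out, the lowest value always without vehicle 1 and the highest without vehicle 2, the log2 difference ran from -0.00203 to 0.85 for the member median, -0.20 to 0.96 for general macrophage genes, -0.34 to 1.18 for C1q chains, -0.48 to 0.65 for Fc receptors and adaptors, and -0.64 to 0.30 for Ly6c2, the 1 tested monocyte gene. It ran from -0.47 to 1.01 for Clec4f, -0.32 to 0.87 for Vsig4, -0.0253 to 3.17 for Marco, -0.20 to 0.99 for Ctss, -0.27 to 1.18 for C1qa, -0.68 to 1.03 for C1qb, -0.34 to 1.21 for C1qc, -0.56 to 0.71 for Fcer1g, -0.40 to 0.72 for Tyrobp, -0.54 to 0.13 for Mpeg1, -0.69 to 0.27 for Cd14, -1.003 to 0.63 for Aif1 and -1.33 to 0.44 for Fcgr1. With 2 libraries a group, small changes are not detectable.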
